A study of Mus musculus with 5 samples.

Results

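The receptor system for IL-4 and IL-13 was examined in whole colon of wild-type C57BL/B6 mice 3 hr after intravenous injection of NT-3N, which activates the receptor of IL-11. Its 7 genes were Il4ra, Il13ra1, Il13ra2 and Il2rg, which encode receptor chains, Il4 and Il13, which encode their ligands, and Tslp, an epithelial cytokine that acts upstream of them. They were taken by name, and all 9 of their named probes on the array were followed. The rule itself used no measured value, but the members were chosen with earlier results of these data known. After a filter on dim probes, 6 of the 7 genes were among the 32918 features tested. Each array held Cy3-labelled colon RNA of 1 sample, with 2 Control arrays and 3 NT-3N arrays. Per a legend in the study the injected mice were 8 weeks old, and the agonist was a modified human IL-11 given at a dose of 10, in mg by the text of the series and in micrograms by the methods. The study calls the Control samples untreated, so effects of the agonist and of being injected cannot be told apart. The text of the series speaks of 2 to 3 mice a group, which matches the numbers of arrays.

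IL-4 binds IL-4Rα, which then pairs with the common γ chain, encoded by Il2rg, or with IL-13Rα1. The first pair is found on blood cells, and the second on cells that include epithelial cells, fibroblasts and smooth muscle. IL-13 uses the IL-13Rα1 pair. Both receptors activate JAK kinases and the transcription factor STAT6, whereas IL-13Rα2 binds IL-13 with high affinity and is mostly described as a decoy. In the gut these cytokines drive mucus secretion, smooth muscle contraction and the expulsion of worms. IL-11 signals through a different pair of chains, its own receptor and gp130, and mainly through STAT3.

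The 250 bases upstream of the annotated start are shown for Il4ra and Il13ra1, the chains of the IL-13 receptor and the only members whose arrays did not overlap between groups, and for Il4, the only one of the 6 members searched, Tslp being left out, with a match to the spacing bound by STAT6. Sequences are from RefSeq, build GRCm38.p6, 5′ to 3′ on the strand of the gene, and capitals mark the matches described after them. Il4ra lay at chr7:125552021-125552270 on the plus strand, Il13ra1 at chrX:36111858-36112107 on the plus strand, and Il4, at its outer annotated start, at chr11:53618666-53618915 on the minus strand.
Il4ra: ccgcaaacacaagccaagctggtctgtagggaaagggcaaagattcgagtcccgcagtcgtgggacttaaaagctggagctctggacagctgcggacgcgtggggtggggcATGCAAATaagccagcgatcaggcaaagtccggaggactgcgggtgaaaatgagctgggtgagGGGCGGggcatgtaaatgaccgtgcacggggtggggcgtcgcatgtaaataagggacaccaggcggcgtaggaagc
Il13ra1: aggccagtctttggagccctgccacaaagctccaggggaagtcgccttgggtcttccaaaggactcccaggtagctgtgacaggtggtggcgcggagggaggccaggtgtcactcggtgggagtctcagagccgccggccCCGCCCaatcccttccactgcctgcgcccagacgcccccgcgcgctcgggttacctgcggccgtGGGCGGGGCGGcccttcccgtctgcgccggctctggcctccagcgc
Il4: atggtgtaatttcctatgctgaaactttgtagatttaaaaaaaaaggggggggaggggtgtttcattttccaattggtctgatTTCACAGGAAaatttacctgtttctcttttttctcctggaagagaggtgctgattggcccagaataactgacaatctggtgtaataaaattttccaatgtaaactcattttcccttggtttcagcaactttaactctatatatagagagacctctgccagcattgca
The pattern TTCNNNGAA, the general STAT spacing, reads the same on both strands, as does the wider one, and was absent from the upstream windows of Il4ra, Il13ra1, Il13ra2, Il2rg, Il4 and Il13; it was present in 7.02% of 32851 windows of the same length. The wider TTCNNNNGAA, the STAT6 spacing, occurred 1 time in the Il4 window and in 5.85% of all windows. In capitals in the Il13ra1 window are 3 GC boxes, GGGCGG or its reverse complement CCGCCC, of which 2 overlap, and in the Il4ra window are 1 GC box and 1 octamer, ATGCAAAT. A GC box on either strand was found in 32.7% of windows and the octamer in 1.6%. These are matches of letters in a short window and say nothing on binding.

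Of 56605 probes, 70.6% to 73.1% gave a signal well above background, depending on the array, without saturation. All 9 epithelial and all 8 smooth muscle markers, which whole colon should carry, were well above background on every array. In limma, 47 of 32918 features, or 0.143%, differed between NT-3N and Control at an adjusted p under 0.05, 9.62% did at an unadjusted p under 0.05, and 1.3% did so with a change of at least 2-fold. None of the 6 members tested passed the adjusted threshold, in limma or in the local-pooled-error test that the study names. At an unadjusted p under 0.05, 1 member passed in each, Il13ra1, and 0 of the 6 also reached 2-fold. All 6 had a higher mean in NT-3N, with a median log2 fold change of 0.26, beside -0.019 over all features, of which 46.4% were higher. Of these, Tslp had 0.0047, Il4 was well above background on 2 arrays only, and Il13ra2 and Il4 were negative without Control replicate 2. Lower means in NT-3N were seen for the untested Il13 and for the second probes of Il4ra and Il13ra2. The groups did not overlap, with NT-3N above, for 2 of the 6, beside 13.5% of all features; NT-3N lay below for 0 of the 6, beside 14.8%. In a bulk sample, fewer cells of a type and less RNA per cell cannot be told apart.

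**Figure D1:**
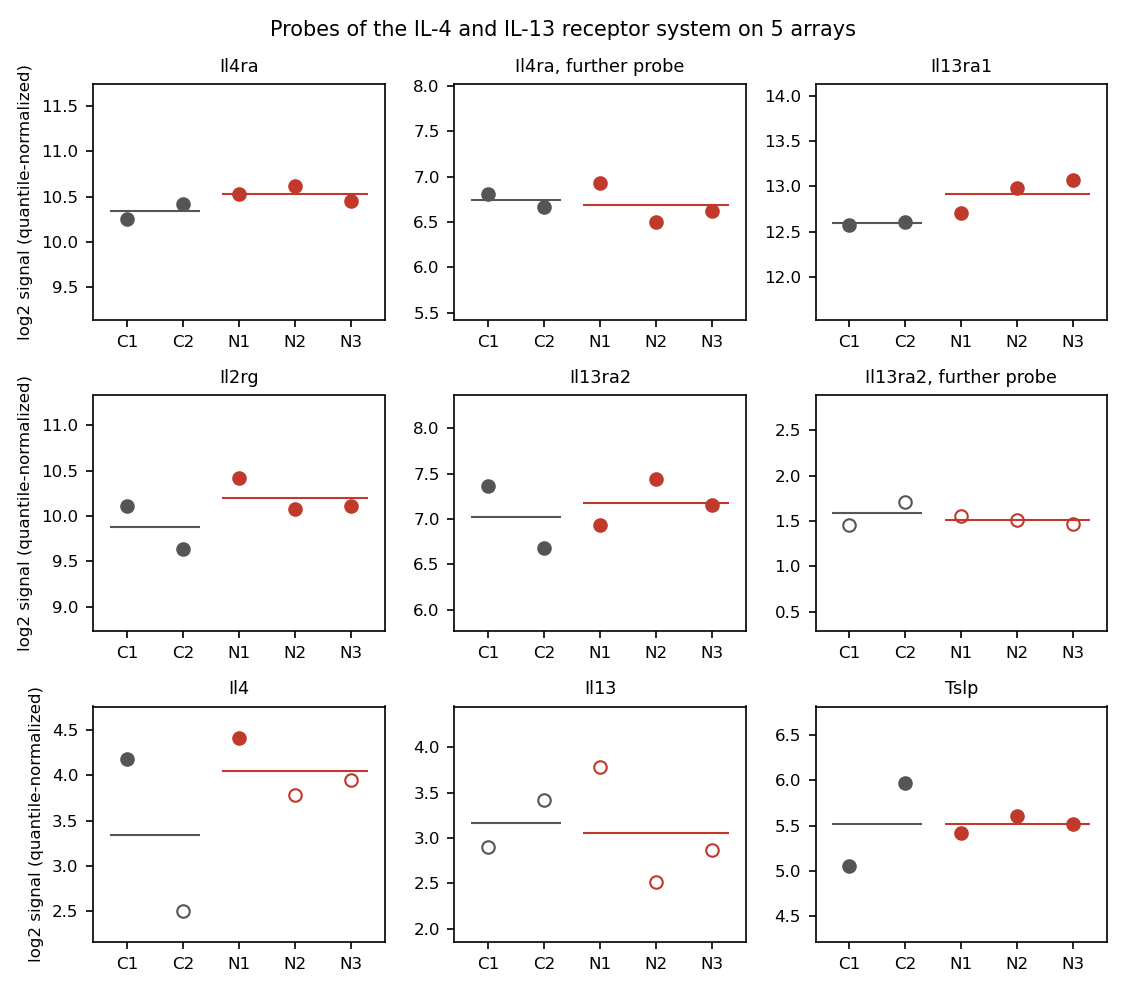
Log2 signal (quantile-normalized) of each probe of the 7 genes on the 2 Control arrays (C1 and C2, grey) and the 3 NT-3N arrays (N1 to N3, red); lines are group means, open circles are values not well above background, and every panel spans the same log2 range. Il13ra1 sits higher on all 3 NT-3N arrays, at 12.71 to 13.07, than on the Control arrays, at 12.58 and 12.61, whereas Il13 is open on every array.

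Il13ra1 encodes the chain that pairs with IL-4Rα in the receptor shared by IL-4 and IL-13. It had a log2 signal of 12.58 and 12.61 in Control and of 12.71, 12.98 and 13.07 in NT-3N. All 3 NT-3N arrays were above both controls, and the controls lay closer together than the NT-3N arrays did. The means were 12.59 ± 0.019 (SD, n = 2) and 12.92 ± 0.19 (SD, n = 3). The difference on the log2 scale was 0.33 ± 0.12 (SE), its 95% interval ran from 0.035 to 0.62, which is 1.25-fold with an interval from 1.02 to 1.53. Its p in limma was 0.0333 before and 0.479 after adjustment, so the difference did not pass over all features. Single arrays moved its unadjusted p past the threshold, to 0.115 and 0.0938 without Control replicate 1 or 2 and to 0.0906 and 0.09 without NT-3N replicate 2 or 3. Without NT-3N replicate 1, the lowest of its group, the log2 difference was 0.43, with an unadjusted p of 0.00156 and an adjusted p of 0.109.

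Il4ra encodes the chain shared by both IL-4 receptors. Its brighter probe, A_51_P464478, gave a log2 signal of 10.26 and 10.42 in Control and of 10.53, 10.61 and 10.45 in NT-3N. The NT-3N arrays were again above the controls, by a margin smaller than the gap between the controls. The log2 fold change was 0.19 ± 0.10 (SE) with a 95% interval from -0.060 to 0.44, and the limma adjusted p was 0.619. The second probe, A_55_P1966189, read 6.81 and 6.67 in Control and 6.93, 6.51 and 6.62 in NT-3N. Those arrays overlapped, the log2 fold change was -0.057 at an unadjusted limma p of 0.757, and so the probes of Il4ra did not move together. The mean of both probes gave a log2 fold change of 0.068.

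Il2rg encodes the common γ chain, which lymphocytes share among the receptors for IL-2, IL-4, IL-7, IL-9, IL-15 and IL-21. Its log2 signal was 10.11 and 9.64 in Control and 10.42, 10.08 and 10.11 in NT-3N. Control replicate 2 was the lowest of the 5 arrays, and Control replicate 1 lay within the NT-3N range. The log2 fold change was 0.33 ± 0.18 (SE), with a 95% interval from -0.10 to 0.75 and an adjusted p of 0.618 in limma. Leaving out Control replicate 2 brought it to 0.091, and leaving out Control replicate 1 to 0.56, so its size depended on which control was kept. With the replicate number as a block, a fit to which NT-3N replicate 3 adds nothing since it has no partner, the unadjusted p was 0.0295 and the adjusted p 0.637. Of 8 B cell markers, all well above background on every array, 5 were lowest on the same array, but Ms4a1, Cd22 and Pax5 were not. Ms4a1, which encodes CD20, read 4.95 and 6.53 in Control and 9.54, 9.13 and 9.51 in NT-3N, so that both controls were low, with a log2 fold change of 3.65 and a limma adjusted p of 0.0595. These 3 were named after their values were seen. The summed log2 signal of the list was 10.77 on Control replicate 2, 12.45 on Control replicate 1 and 12.29 to 12.58 on NT-3N arrays. T cell markers, of which 8 of 9 were tested and 1, Trbc2, had no named probe, summed to 12.08 and 12.25 in Control and 12.02 to 12.41 in NT-3N. The part of these cells in the Il2rg values was not tested.

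**Figure D2:**
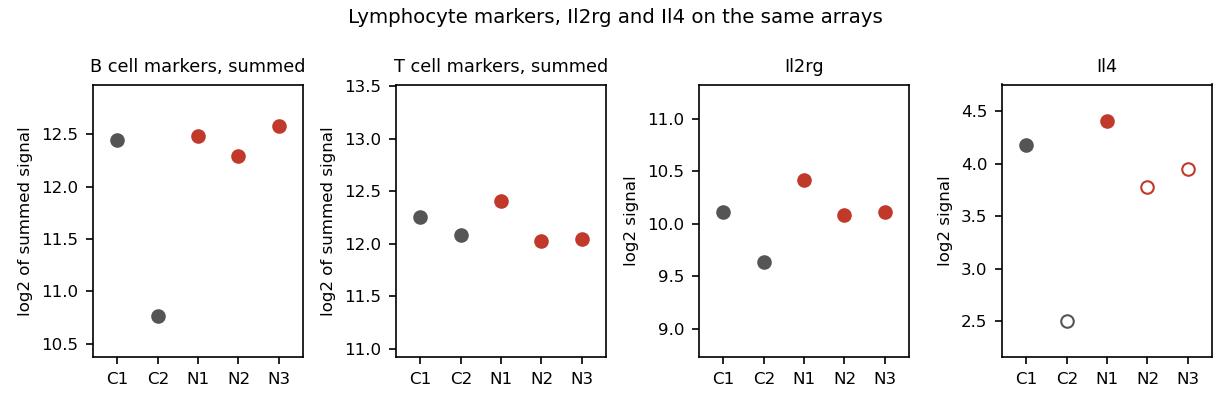
Log2 of the summed signal of B cell and T cell markers, and log2 signal of Il2rg and Il4, on the 2 Control (C1, C2) and 3 NT-3N (N1 to N3) arrays, with the same log2 span in every panel and open circles not well above background. Control replicate 2 is lowest for B cell markers, at 10.77, for Il2rg, at 9.64, and for Il4, at 2.51, but not for T cell markers.

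Il13ra2 encodes the high-affinity IL-13 chain, which the study lists as a marker of inflammation-associated fibroblasts. One probe, A_55_P2327769, was well above background on all 5 arrays, with a log2 signal of 7.36 and 6.68 in Control and of 6.93, 7.45 and 7.16 in NT-3N. The controls lay further apart than the group means, which were 7.02 ± 0.49 (SD, n = 2) and 7.18 ± 0.26 (SD, n = 3). The log2 fold change was 0.16 ± 0.25 (SE) with a 95% interval from -0.46 to 0.77 and a limma adjusted p of 0.866. It was -0.19 without Control replicate 2. The second probe, A_55_P2929601, designed to another transcript, was not well above background on any array. Of the other markers of these fibroblasts, Tnfrsf11b, a decoy receptor for RANKL, had a log2 fold change of 0.43 and Il24 one of -0.20, with adjusted p of 0.567 and 0.784. Il11 itself, named after its value was seen, had 0.14. None of the 4 passed the test.

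The ligands were dim. Il13 was not well above background on any of the 5 arrays, at log2 values between 2.51 and 3.79, and was left untested. Il4 was well above background on Control replicate 1 at 4.18 and on NT-3N replicate 1 at 4.41. On Control replicate 2 it read 2.51, and on NT-3N replicates 2 and 3 it read 3.78 and 3.95, all not well above background. The groups overlapped, and the log2 difference of 0.71 had a 95% interval from -0.62 to 2.03 with a limma adjusted p of 0.721. Without Control replicate 2, the array with the lowest B cell sum, the difference was -0.13. Changes in these cytokine transcripts were therefore not detectable at this signal, which does not show that they were absent.

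Tslp, an alarmin of epithelial and stromal cells that favours IL-4 and IL-13 production, had a log2 signal of 5.05 and 5.97 in Control and of 5.42, 5.61 and 5.52 in NT-3N. Every NT-3N value lay between the controls. The log2 fold change was 0.0047 ± 0.30 (SE), and limma gave a 95% interval from -0.72 to 0.73 and an adjusted p of 0.997. Its receptor pairs the product of Crlf2 with that of Il7r. Crlf2 read 11.35 and 11.39 in Control and 11.60, 11.58 and 11.54 in NT-3N, without overlap, with a log2 fold change of 0.20 and p of 0.0462 before and 0.509 after adjustment in limma. Il7r had 0.15 with an adjusted p of 0.848.

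Over the 5 members well above background on every array, the 95% intervals reached from 0.608-fold to 1.71-fold. The narrowest was that of Il4ra, from 0.959-fold to 1.36-fold. For each member, changes within its own interval could not be told apart with 5 arrays. An exact two-sided permutation test over the 10 splits of the arrays gave p of 0.2 or more for each member, and it cannot go below 0.1.

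By shape over the 5 arrays, the genes most like Il2rg were Zfp182, Ccdc27, Nln, Ltb4r1 and Nudt21, with a root mean square difference of 0.039 to 0.062 in log2 signal after centring, beside a median of 0.296 over 16733 genes. For Il4ra they were Rabl3, Map2k3os, Ppargc1b, Gm36839 and Ss18, at 0.021 to 0.029, beside a median of 0.195. The likeness is a description over 5 arrays only.

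Outside the receptor system, 64 other pathway genes were followed, of which 56 were tested. In limma 2 of the 56 rose at an adjusted p under 0.05, Il33 and Ccl11, and 0 fell, beside 0.143% of all features called. At an unadjusted p under 0.05, 12 were higher and 1 lower, beside 4.95% of all features that were higher and 9.62% in either direction, and their median log2 fold change was 0.11. These lists were drawn up with earlier results on these arrays known.

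The signal relay was represented by 11 kinases, adaptors, phosphatases and inhibitors, all well above background on every array. None passed the adjusted threshold in limma. At an unadjusted p under 0.05, 2 were higher, beside 4.95% of all features, and 0 were lower. The median log2 fold change was 0.0068. Jak3, the kinase bound to the common γ chain, read 7.88 and 7.82 in Control and 8.74, 8.64 and 8.70 in NT-3N. The gap between groups was larger than the spread within either. NT-3N over Control came to 0.84 ± 0.11 (SE) on the log2 scale, with a limma adjusted p of 0.0774, and its further probe had the same sign. It passed in 1 of 19 alternatives, array quality weights, at 0.0318. Jak1, the kinase bound to IL-4Rα, had a log2 fold change of 0.21 with an unadjusted p of 0.0424 and an adjusted p of 0.501. Stat6, the factor that carries the IL-4 signal to the nucleus, was lower on each NT-3N array, at 10.61 to 10.68, than on the controls, at 10.72 and 10.95. Its log2 fold change of -0.18 had an adjusted p of 0.637. Irs2, an adaptor of this list, had a log2 fold change of 0.68 with an adjusted p of 0.587 in limma, and the arrays overlapped. The local-pooled-error test called it, with an adjusted p of 0.0289. Stat6 and Irs2 were chosen for mention after their values were seen.

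**Figure D3:**
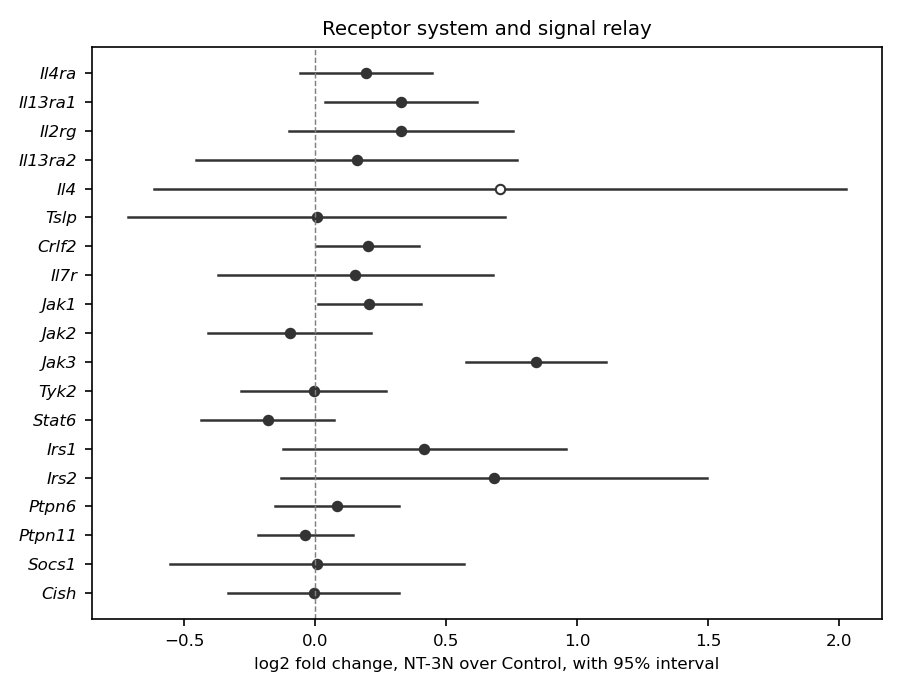
Log2 fold change of NT-3N over Control with its 95% interval from limma for the tested members, the TSLP receptor chains and the signal relay; the open circle marks Il4, not well above background on every array. The interval of Jak3 lies furthest from 0, around 0.84, and no gene shown passed an adjusted p under 0.05 in limma.

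Of 6 receptors that pair with the common γ chain, 0 passed either threshold in limma. Il2ra had a log2 fold change of 0.36 and Il2rb, which encodes the β chain for IL-2 and IL-15, one of -0.28, with adjusted p of 0.706 and 0.625. Of 5 ligands of these receptors 3 were tested, and Il2 and Il9 were too dim. Il7, a stromal growth factor for lymphocytes, read 6.53 and 6.39 in Control and 7.19, 7.64 and 7.47 in NT-3N. The groups were well separated, and the log2 fold change was 0.97 ± 0.18 (SE), but the limma adjusted p was 0.17. Il15 had 0.093 with an adjusted p of 0.912.

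Il33, an alarmin that acts on the same type 2 lymphocytes as TSLP, was at 7.30 and 7.25 in Control and at 9.65, 9.97 and 10.05 in NT-3N. It rose by 2.61 on the log2 scale, with an adjusted p of 0.0057 in limma. The call held in 15 of 19 alternatives, and over the 19 the log2 fold change stayed between 2.20 and 2.73; of the arrays left out in turn, it was lost without NT-3N replicate 3, where limma called 0 features and 2384 had an unadjusted p under 0.05. Its receptor gene Il1rl1 and the further genes of this list, Il1rap, Il25, Il17rb and Il17ra, all named after their values were seen, did not pass either threshold. Of 9 type 2 cytokines and their transcription factors 4 were tested, and Il5, Il9, Il31, Il3 and Csf2 were too dim. The 4 factors had a median log2 fold change of 0.29, with 0 past either threshold; Maf had 0.39 and Rora -0.27, with adjusted p of 0.597 and 0.606. Among genes that flank Il4 and Il13, Kif3a, a motor protein of cilia, had -0.41 with an unadjusted p of 0.0076 and an adjusted p of 0.323. Rad50, a DNA repair gene between Il5 and Il13, had 0.12 with an adjusted p of 0.72.

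A list of 20 genes known to be induced by IL-4 or IL-13 in macrophages, epithelium or stroma was then followed, of which 18 were tested. The list was drawn up with earlier results on these arrays known, so its counts beside those of all features are descriptions only. In limma 1 rose at an adjusted p under 0.05, and 7 of the 18 were higher and 0 lower at an unadjusted p under 0.05, beside 4.95% of all features that were higher at that threshold. The median log2 fold change was 0.33. In 8 of the 18 every NT-3N array was above both controls, beside 13.5% of all features. Without Control replicate 2, 5 of the 18 were higher at an unadjusted p under 0.05.

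Ccl11, which encodes the eosinophil attractant eotaxin and is also induced by other cytokines, read 8.83 and 8.76 in Control and 9.81, 10.00 and 9.89 in NT-3N. The groups were far apart against their spreads of 0.047 and 0.095 (SD, n = 2 and 3). Ccl11 rose by 1.1 on the log2 scale, or 2.15-fold, with a limma adjusted p of 0.0345. The call held in 10 of 19 alternatives, over which the log2 fold change stayed between 1.01 and 1.15 and the adjusted p between 0.0112 and 0.491; of the arrays left out in turn, it held only without NT-3N replicate 1. In the local-pooled-error test, which the study names, Ccl11 was not called, with an adjusted p of 0.166. Egr2, an immediate early transcription factor that also takes part in macrophage activation, read 6.05 and 5.54 in Control and 6.82, 7.38 and 6.64 in NT-3N. The log2 fold change of Egr2 was 1.16 with an unadjusted p of 0.00522 and an adjusted p of 0.274.

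The other 5 at an unadjusted p under 0.05, named after their values were seen, were Tgm2 with a log2 fold change of 0.68, Clec10a with 0.70, Mrc1 with 0.53, Ccl24 with 0.88 and Retnla with 0.34. Mrc1, Clec10a and Retnla are known from alternatively activated macrophages, and Tgm2 encodes a crosslinking enzyme. Macrophage markers, 8 of 8 well above background, summed to log2 values of 13.77 and 13.82 in Control and 13.51 to 14.01 in NT-3N, with a median log2 fold change of -0.015; 1 of them, Mrc1, is also a response gene. Arg1, another macrophage gene, had -0.57 with overlapping arrays. The goblet cell genes Clca1 and Retnlb had lower means in NT-3N, with overlapping arrays. Clca1, a secreted goblet cell protein, read 17.92 and 17.94 in Control and 16.95, 18.11 and 17.55 in NT-3N. Retnlb, a goblet cell product against worms, read 15.31 and 15.35 in Control and 14.48, 15.78 and 12.75 in NT-3N. In both, the controls lay close together and the NT-3N arrays spread to either side of them, and the adjusted p was 0.716 and 0.724 in limma. The local-pooled-error test did call Retnlb, lower by a log2 fold change of -0.85 with an adjusted p of 0.000885. Clca1, Retnlb, Arg1 and Fcer2a, shown in the plot of response genes, were chosen after their values were seen.

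**Figure D4:**
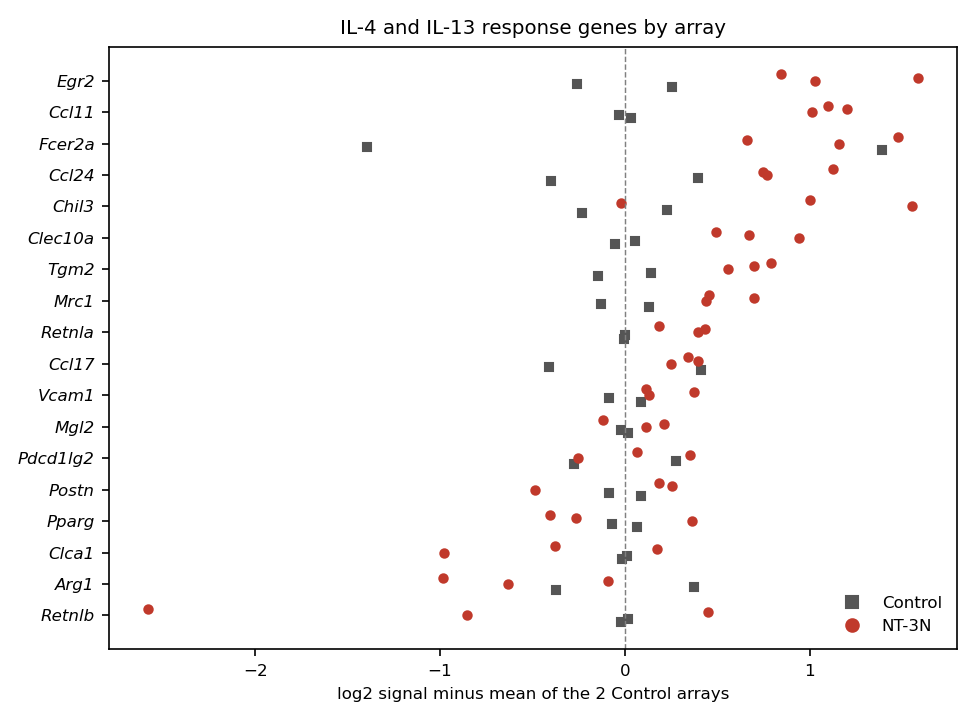
Log2 signal minus the mean of the 2 Control arrays for the 18 tested IL-4 and IL-13 response genes, by array, ordered by log2 fold change, with squares for Control and circles for NT-3N. Ccl11, with a log2 fold change of 1.1, is the gene that passed an adjusted p under 0.05, and Fcer2a, a B cell gene, shows the gap between the controls, at 7.76 and 4.98.

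Cells that make or answer these cytokines were followed by their markers. ILC2 markers, 7 of 7 tested, had a median log2 fold change of 0.12 and summed to 11.21 and 11.35 in Control and 10.97 to 11.47 in NT-3N. Eosinophil markers had 0.12 over 5 of 7 tested, and the defining Ccr3 and Epx were not well above background on any array; the sums were 8.78 and 8.89 in Control and 8.82 to 9.28 in NT-3N. Tuft cell markers had -0.14 over 6 of 7. No marker of these 3 lists passed an unadjusted p under 0.05 in limma. Fibroblast markers, 8 of 8 tested, had a median of 0.047 and summed to 16.01 and 16.15 in Control and 15.89 to 16.47 in NT-3N. The smooth muscle markers were lower in 8 of 8, with a median of -0.29 and sums of 18.86 and 18.91 in Control and 18.40 to 18.73 in NT-3N, and 3 of them passed an unadjusted p under 0.05. Over all features 46.4% were higher, and 9.62% passed that threshold in either direction. Of the fibroblast markers 2 were higher at that threshold, beside 4.95% of all features. Of 8 neutrophil markers 7 passed the filter on dim probes and 2, Csf3r and Camp, were well above background on every array. S100a8 read 2.57 and 2.51 in Control and 6.21, 4.28 and 5.15 in NT-3N, and S100a9 read 1.56 and 1.58 in Control and 8.58, 6.23 and 6.65 in NT-3N. Both were well above background on 3 arrays only and were lowest in Control, so a count of this list would rest on controls near background. These 4 were named after their values were seen. Endothelial markers had a median of 0.10, with 0 past that threshold. Fat markers summed to between 12.01 and 14.48, with overlapping groups. The part of these shifts in the values of Il13ra1 and Ccl11 was not tested.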

How the data were processed

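Colon RNA of 5 samples was hybridised to single-colour Agilent SurePrint G3 mouse arrays. Per the file headers and the submitters' processing notes, the authors extracted spots with Agilent Feature Extraction 11.0.1.1, and the deposited intensity was background-subtracted and detrended but not scaled between arrays. The authors also deposited log2 values of 37380 probes, used as an alternative only. The methods of the study describe log2 processed signal normalized by quantiles. The lowest correlation of the deposited values with the log2 processed signal of the scanner files was 0.9999. That signal was not normalized, so the correlation cannot show which normalization was used. All arrays shared 1 slide design and 1 scan time.

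Control spots and 69 to 184 flagged outlier spots of 59305 per array were left out, the signal was log2-transformed, spots of a probe averaged and arrays quantile-normalized. Probes well above background on at least 2 arrays were kept, and the brightest probe stood for a gene. Symbols came from RefSeq (GRCm38.p6) by accession and named 32994 of 56605 probes; the array design refers to another build, so gene coordinates are given only for RefSeq upstream windows.

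NT-3N was set against Control in limma 3.58.1 under R 4.3.3 (two-sided; lmFit, then eBayes with a trend in intensity), and p was adjusted over the 32918 features by Benjamini-Hochberg. Calls used an adjusted p under 0.05; counts at an unadjusted p under 0.05, alone and with 2-fold, are given apart. The fit was also run on simulated data, drawn with the spread that limma itself had fitted and with independent arrays. That run therefore cannot show how the fit handles differences in tissue make-up between arrays. The study names a local-pooled-error test, which was run as an alternative. The number of arrays limits the precision.

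Genes were named by rule: every member, and of each pathway list the genes past an adjusted p under 0.05, or an unadjusted p under 0.05 with 2-fold, or, in a list with neither, the 2 with the smallest p; genes outside it are said to have been chosen after their values were seen. The genes most like Il4ra, and most like the member with the largest change among those well above background throughout, were the 5 with the smallest root mean square difference. The members and lists were chosen with earlier results of these data known. Alternatives covered scaling, background correction, the deposited values, filters, variance models, array weights, several probes, the test, the replicate number as a block and each array left out; slide and scan could not be used as a block.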

Additional observations from a re-analysis of the deposited data

How the results depend on the processing

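No member was called at an adjusted p under 0.05 in any of 19 alternatives (17 for Il4). At an unadjusted p under 0.05 and 2-fold, members numbered 0, and between 0 and 1 without each array in turn, the 1 being Il4 without Control replicate 1, against a control not well above background. Of the pathway genes, 2 were called in limma. The local-pooled-error test called 4, Il33, Tgm2, Irs2 and, lower in NT-3N, Retnlb, and lost Ccl11. In limma the count was 3 with array quality weights and 1 with normexp. It was 0 with no filter on dim probes, no intensity trend or the replicate block, and ranged from 0 to 2 without each NT-3N array in turn. Past an unadjusted p under 0.05 and 2-fold there were 3 in limma. This count was 2 with normexp and 5 with the local-pooled-error test. It was 4 with no filter on dim probes, array quality weights or the replicate block, and without each NT-3N array in turn. The response genes higher at an unadjusted p under 0.05 ranged from 4, with the local-pooled-error test, to 8. The cause was not tested.

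The log2 fold change of Tslp turned to -0.039 with 75th percentile scaling, -0.017 with median scaling, -0.016 with normexp and -0.041 without NT-3N replicate 2, and ranged from -0.45 to 0.46 without each array. That of Il13ra2 ranged from -0.19 to 0.50 and that of Il4 from -0.13 to 1.54, the lowest without Control replicate 2. Il13ra1 kept its sign, between 0.25 and 0.43, and passed an unadjusted p under 0.05 in 12 of 19 alternatives. Scalings moved the median of all features by under 0.1.

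The labels do not say whether the replicate numbers pair the samples. The correlation of their deviations was 0.13 (replicate 1) and 0.036 (replicate 2). With 2 controls, whose deviations mirror each other, these correlations cannot decide it. With the replicate block, to which NT-3N replicate 3 adds nothing, limma called 0 features and 0 members, with 2489 features at an unadjusted p under 0.05; Il2rg differed by 0.37 (adjusted p 0.637) and Il13ra1 by 0.25 (adjusted p 0.668).

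Normexp was run on the median spot signal, since the files used hold no mean; that choice, a fit of named features alone, and the counts of called pathway genes and of response genes were chosen after seeing the data. The slide block was not run, with 1 scan time. A single remaining control was taken to vary as the NT-3N group does. Dim probes such as Il4 and Il13 limit what can be said of the ligands.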

Other observations

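Genes of intestinal mast cells, which type 2 cytokines help to maintain, varied widely within both groups. Mcpt1, a mucosal mast cell protease, had a log2 signal of 8.87 and 5.23 in Control and of 6.40, 10.55 and 5.49 in NT-3N. Mcpt4 read 8.78 and 5.51 in Control and 6.45, 10.55 and 6.33 in NT-3N. Mcpt2 was well above background on 2 arrays, Control replicate 1 at 5.07 and NT-3N replicate 2 at 6.72, and lay between 1.56 and 1.72 on the others. Control replicate 1 and NT-3N replicate 2 were therefore the highest arrays for all 3 proteases. They were also the highest for Il13ra2, at 7.36 and 7.45. Over the list of 9 mast cell markers 8 were tested, with sums between 12.60 and 12.75 in Control and between 12.21 and 13.05 in NT-3N, and 0 passed an unadjusted p under 0.05 in limma. Tpsb2, a protease of connective tissue mast cells, differed little between arrays, at 11.01 to 11.36, and was highest on Control replicate 2. Kit was also highest there, at 11.98, beside 11.54 on Control replicate 1 and 11.32 on NT-3N replicate 2. Cpa3 and Fcer1a had the same highest arrays as the 3 proteases. Cma1 was highest on NT-3N replicate 2, followed by NT-3N replicate 3. These genes were chosen after their values were seen, and no relation to Il13ra2 was tested.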
